A study of Mus musculus with 32 samples.

Results

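The genes described here are 38 mouse genes of fatty acid oxidation and ketone body metabolism. They were chosen by name: every row of the deposited table of m6A pulldown values whose gene symbol is on the list of mitochondrial and peroxisomal beta-oxidation, carnitine and ketone body genes was taken. All 38 listed symbols were found among the 27179 genes of the table. The rule itself used no measured value, but the list was chosen with earlier results of these data known. By role they comprise 5 genes of fatty acid uptake and activation, 6 of the carnitine shuttle, 11 of the mitochondrial cycle, 3 of electron transfer, 7 of peroxisomal oxidation, 2 acyl-CoA thioesterases, 3 ketone body enzymes and the regulator Ppara.

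The study compared 4 mouse organs, brain, heart, kidney and liver, in methylated RNA immunoprecipitation sequencing (MeRIP-Seq), in which an antibody enriches RNA fragments carrying N6-methyladenosine (m6A). Each organ was taken either flash frozen (called Frozen) or after 10% formalin fixation and paraffin embedding (FFPE), the form used in pathology archives. RNA was sheared with ultrasound for 20 min before the pulldown, and total RNA libraries were made with ribosomal RNA depletion. The labels list 2 runs for each of the 8 m6A groups, but the table holds 1 column per group, and the sources used here do not state which run or runs it came from. No strain, age, sex, genotype or number of mice stands in the labels used here, and no agent was given beyond the preservation. Whether frozen and FFPE tissue came from the same mice is not stated either, but sex-linked transcripts differed between them in every organ, as given below. Input RNA was not analysed here, so a level reflects both how abundant a transcript was and how well the antibody retained it, and these cannot be told apart. The same holds for fewer cells of a type and less RNA per cell.

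Beta-oxidation shortens fatty acids in repeated cycles of dehydrogenation, hydration, a further dehydrogenation and thiolysis. In mitochondria, long-chain acids enter through the carnitine shuttle and the electrons reach the respiratory chain through electron transfer flavoprotein. Peroxisomes begin the oxidation of very long and branched chains and pass shortened acyl groups on. Liver turns surplus acetyl-CoA into ketone bodies, which heart, kidney and brain burn but liver cannot, and the nuclear receptor PPAR alpha, encoded by Ppara, is the best known activator of these genes. Adult heart draws most of its fuel from fatty acids, kidney tubules also burn them, and neurons use them little.

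RefSeq promoter windows (build GRCm38.p6, 250 bases before to 50 after a gene's start) were matched by symbol for 33 of the 38 genes, in 37 windows. The 250 bases before the start are shown for 5 genes on which the organ results turn, 5′ to 3′ on the gene's strand. They are Fabp1 (chr6:71199629-71199878, plus strand) and Fabp3 (chr4:130308488-130308737, plus strand), with the largest organ differences of their role, and Hadhb (chr5:30155003-30155252, plus strand), which lies between the divergent starts of the trifunctional protein pair. Ehhadh (chr16:21787835-21788084, minus strand) and Acaa1b (chr9:119157094-119157343, minus strand) are the peroxisomal genes with the widest range over organs. Capitals mark matches to any of the motifs described after the sequences.
Fabp1: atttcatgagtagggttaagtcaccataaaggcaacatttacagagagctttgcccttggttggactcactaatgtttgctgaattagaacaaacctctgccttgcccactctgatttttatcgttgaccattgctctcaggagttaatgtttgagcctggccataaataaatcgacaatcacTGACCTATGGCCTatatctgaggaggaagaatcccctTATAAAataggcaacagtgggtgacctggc
Fabp3: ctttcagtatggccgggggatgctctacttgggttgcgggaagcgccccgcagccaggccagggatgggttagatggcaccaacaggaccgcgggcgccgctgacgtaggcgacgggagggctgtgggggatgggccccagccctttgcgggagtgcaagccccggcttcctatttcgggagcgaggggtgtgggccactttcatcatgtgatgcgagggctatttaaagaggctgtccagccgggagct
Hadhb: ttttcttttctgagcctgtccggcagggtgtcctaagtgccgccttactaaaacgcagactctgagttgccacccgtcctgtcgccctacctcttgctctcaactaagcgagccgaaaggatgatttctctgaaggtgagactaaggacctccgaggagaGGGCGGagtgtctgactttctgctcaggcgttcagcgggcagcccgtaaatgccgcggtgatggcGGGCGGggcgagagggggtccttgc
Ehhadh: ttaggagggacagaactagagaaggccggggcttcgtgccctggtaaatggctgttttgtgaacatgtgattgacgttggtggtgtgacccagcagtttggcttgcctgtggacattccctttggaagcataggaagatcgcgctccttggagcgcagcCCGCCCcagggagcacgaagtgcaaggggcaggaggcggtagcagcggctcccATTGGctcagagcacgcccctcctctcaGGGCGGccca
Acaa1b: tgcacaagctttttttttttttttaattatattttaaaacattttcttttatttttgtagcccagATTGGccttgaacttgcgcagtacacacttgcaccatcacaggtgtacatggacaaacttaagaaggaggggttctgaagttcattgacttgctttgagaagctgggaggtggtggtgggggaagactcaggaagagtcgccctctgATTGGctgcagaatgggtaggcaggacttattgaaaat

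Motifs were searched on both strands of each window. AGGNCANAGGNCA, a loose form of the direct repeat bound by PPAR and retinoid X receptor pairs, was in 0.381% of 32851 windows of all genes and 0.279% of the 14713 windows of genes tested. Among the members it was in the Fabp1 window, 67 to 55 bases before the start on the minus strand, written TGACCTATGGCCT in the sequence shown. The strict form AGGTCANAGGTCA matched no member window, and 0.0396% of all windows held it. TATAAA, the TATA box core, was in 13.6% of all windows and 7.99% of those of genes tested, and among the members likewise in that of Fabp1, 30 to 25 bases before the start. CCAAT was in 17 of 37 member windows (45.9%) against 37.4% of all windows and 37.1% of those of genes tested, and GGGCGG in 27 of 37 (73.0%) against 35.7% and 59.2%. Hadha and Hadhb, which encode both subunits of 1 enzyme, start 272 bases apart on opposite strands of chromosome 5. A match is a description of letters and not a bound site. The windows of Cpt1b, Decr1, Acaa2, Acat1 and Crat were not in the table.

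Levels are log2 normalized counts, that is, log2 of CPM (counts scaled to a common library size) with 0.5 counts added, so a difference of 1 is 2-fold. They are compared between libraries and not between genes, since transcript lengths were not used here. Total gene counts were 9603050 to 21523379 per library, of which ribosomal RNA took 50.4% to 79.7%. The level of 3 counts lay between -3.29 and -0.86. Each organ carried its own markers: the summed level of 11 cardiomyocyte genes was 39745 and 45932 CPM in frozen and FFPE heart against 79.2 to 239 elsewhere, and that of 10 hepatocyte genes 31257 and 29514 in liver against 6.45 to 365. Nephron genes summed to 4707 and 4046 in kidney against 2.23 to 10.8, and neuron genes to 1228 and 946 in brain against 4.58 to 45.5, with the frozen heart highest outside brain. All 38 members passed the filter of a log2 level above 0 in at least 2 libraries, 29 of them with such levels in all 8. Fabp1 and Cpt1b passed through 1 organ only and so had to differ. Of the 304 member values, 13 rested on 3 or fewer counts.

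Brain was the organ in which most of these genes were scarce. In frozen tissue 31 of 38 members had their lowest level in brain, and in FFPE tissue 30. The highest level lay in liver for 23, in heart for 9, in kidney for 3 and in brain for 3 members in frozen tissue, against 24.4%, 18.9%, 18.5% and 38.1% of all genes tested. In FFPE tissue the split was 17 in liver, 17 in heart, 1 in kidney and 3 in brain, against 26.9%, 21.0%, 18.5% and 33.6% of all genes. The median level over the members was 2.51 in frozen brain, 5.09 in frozen heart, 5.05 in frozen kidney and 6.20 in frozen liver, and 2.06, 5.00, 4.50 and 5.48 in the same order in FFPE tissue. Over all genes tested, the medians lay between 1.94 and 2.37. The top organ was the same in both preservations for 29 members (76.3%), close to the 75.1% of all genes tested.

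**Figure D1:**
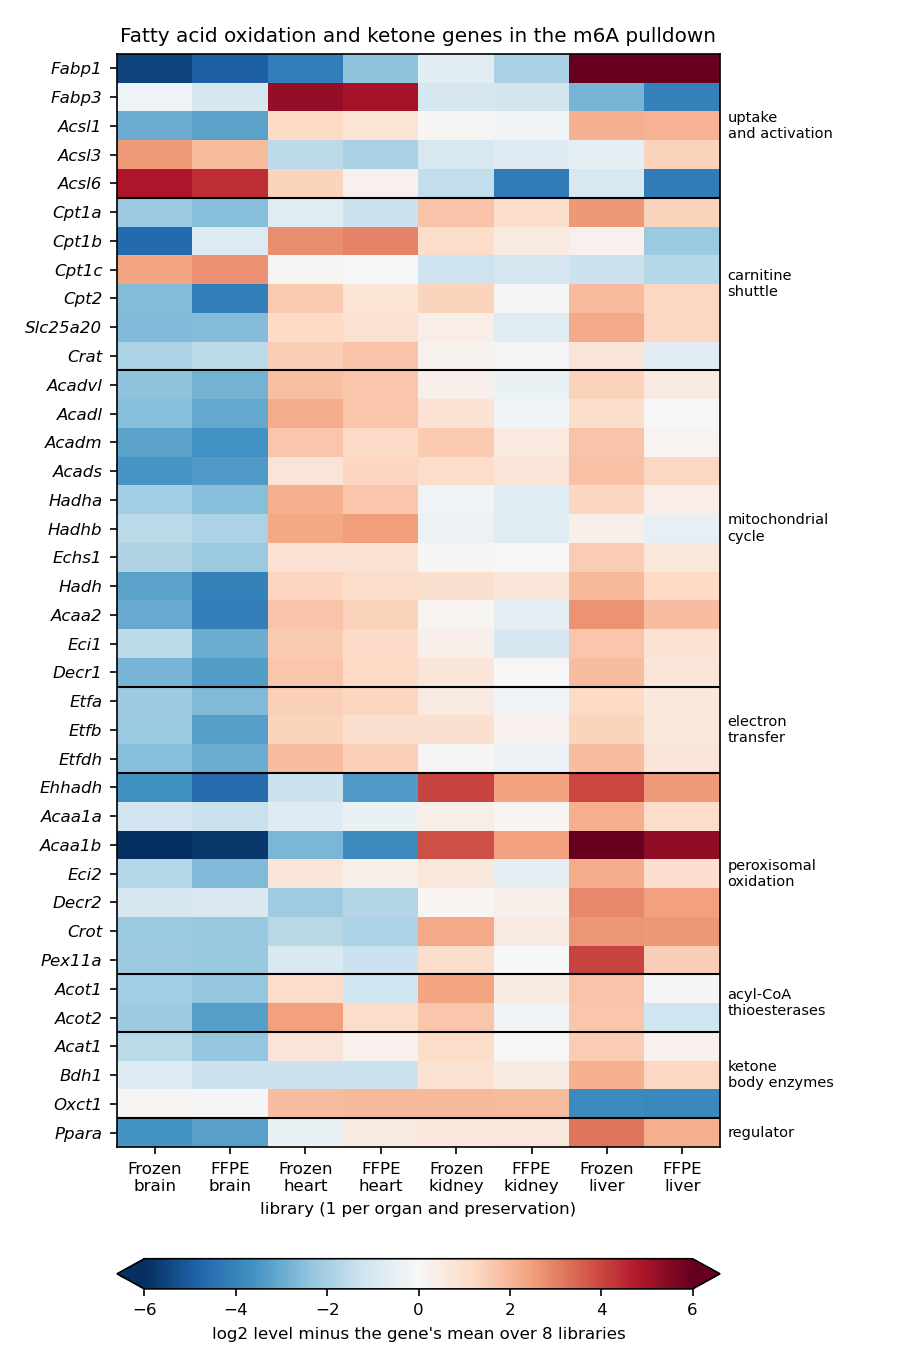
Level of each of the 38 genes (rows, grouped by role) in each of the 8 libraries (columns), as log2 level minus that gene's mean over the libraries (red above, blue below, colours capped at 6). The brain columns are blue for nearly all genes except Acsl3, Acsl6 and Cpt1c, and the peroxisomal genes are red mainly in kidney and liver.

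To ask which genes set an organ apart, each organ was tested against the mean of the other 3 with limma, in an additive model of organ and preservation over the 8 libraries, with Benjamini-Hochberg adjustment over 14864 genes and a threshold of 0.05. The p-values rest on how alike the FFPE minus frozen differences were over the 4 organs, not on the spread between mice. In brain 34 of 38 members were lower and 3 higher, where 26.4% of all genes tested were lower and 30.2% higher. The median difference over the members was -3.18 in brain, against 0.07 over all genes tested. For heart, liver and kidney the mean of the other organs includes brain, so a low brain level alone raises their differences. The comparisons were not repeated without both brain libraries. In heart 24 were higher and 10 lower (15.9% and 18.1% of all genes), with a median of 1.38 against -0.15. In liver 29 were higher and 4 lower (20.1% and 27.2% of all genes), with a median of 1.69 against -0.18. In kidney 13 were higher and 5 lower (16.1% and 13.5% of all genes), with a median of 0.39 against 0.00195. Without Fabp1 and Cpt1b, which had to differ, the counts higher and lower over 36 members were 28 and 4 for liver, 23 and 9 for heart, 13 and 5 for kidney and 3 and 32 for brain.

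The counts for brain changed little with the scaling of the libraries, while those for heart, liver and kidney changed more. In heart 18 were higher and 10 lower with scaling by total gene counts, and 22 and 10 by counts outside the ribosomal genes. Shares of all genes for heart under these scalings are not given here. When libraries were scaled by total gene counts, every liver difference moved by -1.20 and the count became 15 higher and 7 lower (7.69% and 58.0% of all genes), with the median of all genes at -1.38 and that of the members at 0.49. Scaled by counts outside the ribosomal genes, 22 were higher and 5 lower in liver (11.0% and 53.9% of all genes). For kidney, scaling by total gene counts gave 15 higher and 1 lower (19.0% and 6.82% of all genes), and scaling by counts outside the ribosomal genes 19 higher and 2 lower (29.1% and 8.39%). Without frozen kidney the kidney count was 7 higher and 1 lower, and without FFPE kidney 7 higher and 2 lower.

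**Figure D2:**
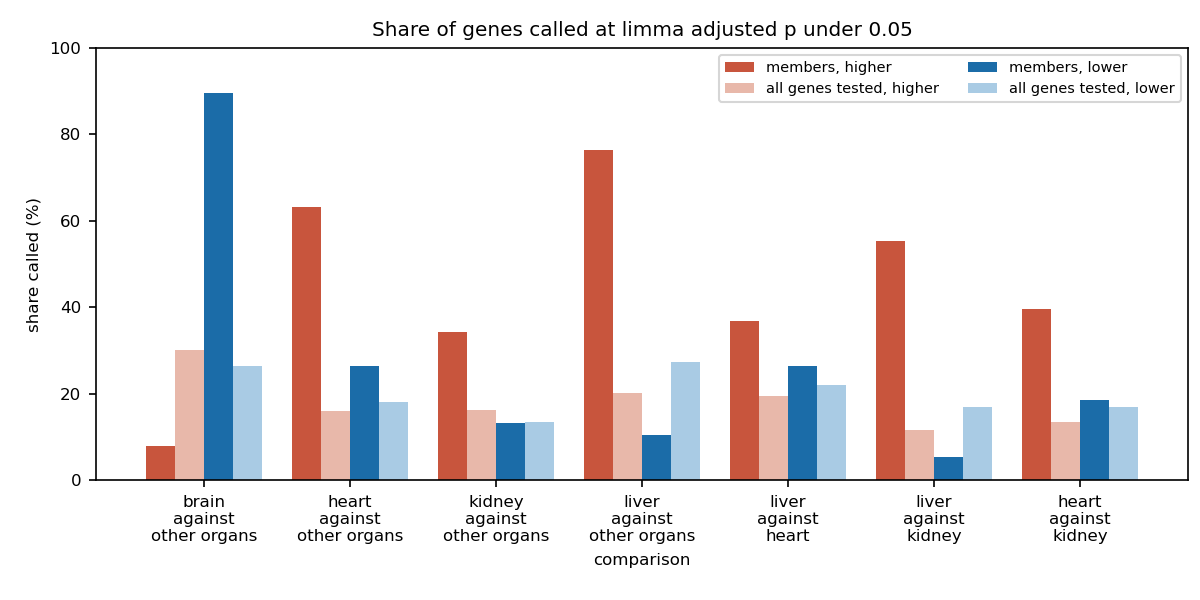
Share of the 38 members and of all 14864 genes tested (bars, in %) called higher or lower in each comparison of organs (x axis) at a limma adjusted p under 0.05. The members' bar for lower in brain reaches 89.5% against 26.4% of all genes, and the bar for higher in liver 76.3% against 20.1%.

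The genes of uptake and activation split by isoform. Fabp1, the liver fatty acid-binding protein gene (chromosome 6, 71199879 to 71205034), had 6715 counts in frozen and 3527 in FFPE liver, 9 and 3 in kidney, 0 and 1 in heart, and 0 in both brain libraries. Its liver levels of 9.39 and 9.12 stood apart from the other 6 libraries. Against the floor of 3 counts in each brain library, frozen liver was at least 6543-fold and FFPE liver at least 3418-fold higher. Since this gene passed the filter through liver alone, its liver difference is a description, with no test. Fabp3, the heart isoform (chromosome 4, 130308738 to 130315463), was at 8.01 in frozen and 7.71 in FFPE heart, 2.45 and 1.65 in brain, 1.73 and 1.63 in kidney, and -0.08 and -1.34 in liver. Both heart libraries lay above the rest, with a difference from the other organs of 6.85 ± 0.27 (SE; limma adjusted p = 1.33e-06), and both liver libraries lowest. Its lower calls in brain (-0.89) and kidney (-1.39) turned on the heart libraries: without them the differences were 1.56 and 1.01, and with scaling by total gene counts the brain difference was 0.33.

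Acyl-CoA synthetases activate fatty acids with coenzyme A. Acsl1, the main form of oxidative tissues, was at 8.77 in frozen and 8.74 in FFPE liver, 7.85 and 7.44 in heart, 6.73 and 6.49 in kidney, but 3.65 and 3.44 in brain. The organs did not overlap, and brain was lower than the others, with a difference of -4.13 ± 0.13 (SE; limma adjusted p = 8.58e-07). Acsl6, a form best known from brain, was at 5.38 and 4.98 in brain, 1.90 and 0.82 in heart, and had 11 and 1 counts in kidney and 7 and 0 in liver. It was higher in brain by 6.18 ± 0.62 (SE; limma adjusted p = 6.40e-05). In frozen heart, where all 10 neuron markers had over 3 counts and summed to 45.5 CPM against 18.6 in FFPE heart, Acsl6 had 48 counts, and the part of neurons in that value was not tested. Acsl3, which is linked to lipid droplets, was at 5.73 and 5.08 in brain, 2.21 and 2.41 in kidney, 1.64 and 1.24 in heart, and 2.66 and 4.57 in frozen and FFPE liver. Brain was higher by 2.95 ± 0.43 (SE; limma adjusted p = 0.000495), and the liver libraries lay far apart.

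In the carnitine shuttle, the CPT1 isozymes differed in where they were high. Cpt1a, the liver form of the outer membrane transferase that commits fatty acids to the mitochondrion (chromosome 19, 3322326 to 3385735), was at 7.94 and 6.67 in frozen and FFPE liver, 7.05 and 6.42 in kidney, 4.64 and 4.07 in heart, and 3.19 and 2.80 in brain. Liver (2.61 ± 0.18, SE; limma adjusted p = 1.08e-05) and kidney (1.85; 0.000176) were higher than the other organs, and heart (-1.32; 0.000728) and brain (-3.14; 4.37e-06) lower. Liver and kidney themselves differed by 0.57 ± 0.22 (SE; limma adjusted p = 0.088), and their libraries overlapped. Cpt1b, the muscle form, had 33 and 34 counts in heart, 17 and 10 in kidney, 4 and 0 in liver and 0 and 4 in brain. The gene passed the filter through heart alone, so its higher heart level is a description, with no test. Cpt1c, the neuronal form, was at 3.22 and 3.61 in brain, 0.92 and 0.89 in heart, and between -0.86 and -0.16 in kidney and liver. Only the brain libraries lay above 1, and the difference was 3.42 ± 0.39 (SE; limma adjusted p = 0.000129).

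The other shuttle genes did not show a brain form. Cpt2, which rebuilds acyl-CoA inside the mitochondrion (chromosome 4, 107903982 to 107923589), was at 6.18 and 5.52 in frozen and FFPE liver, 5.87 and 5.09 in heart, 5.63 and 4.24 in kidney, but 1.68 and 0.13 in brain. Brain stood apart below the other 6 libraries, which overlapped, with a difference of -4.52 ± 0.21 (SE; limma adjusted p = 1.97e-06). Slc25a20, the carnitine-acylcarnitine carrier, differed by -3.50 in brain, 1.41 in heart and 2.33 in liver, all called, though the heart call was lost without FFPE heart and with scaling by total gene counts. Crat, carnitine acetyltransferase, was higher in heart (2.13; limma adjusted p = 0.000889), with levels of 6.17 and 6.40 there and 2.79 to 5.48 elsewhere. Of the 6 shuttle genes, 5 were lower and 1 higher in brain (26.4% and 30.2% of all genes tested). In heart 4 were higher and 1 lower (15.9% and 18.1%), with Cpt1b, which had to differ, among the higher. In kidney 2 were higher and 1 lower (16.1% and 13.5%), and in liver 3 and 1 (20.1% and 27.2%). A count of 1 in 6 does not stand apart from these shares.

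**Figure D3:**
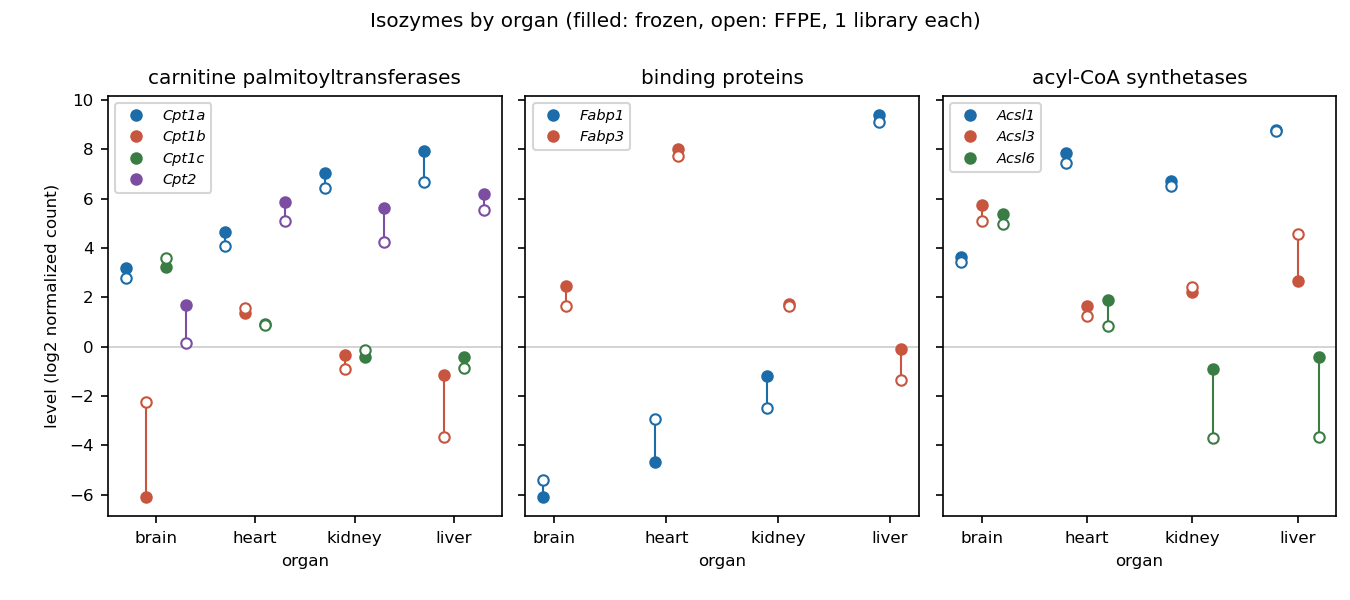
Level (y axis, log2 normalized count) of isozyme genes in the 4 organs (x axis), with a filled circle for the frozen and an open circle for the FFPE library, joined by a line. Cpt1a, Fabp1 and Acsl1 are highest in liver, Cpt1b and Fabp3 in heart, and Cpt1c, Acsl3 and Acsl6 in brain.

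The 11 genes of the mitochondrial cycle shared a pattern. All 11 were lower in brain and all 11 higher in heart than the mean of the other organs, and 10 were higher in liver. For heart and liver that mean includes brain, where these genes were far lower, so a low brain level alone can raise both. Between liver and heart, 1 was higher in liver, 4 were lower and 6 were not called, with a median of -0.15. Of all genes tested, 19.5% were higher and 22.0% lower in liver than in heart. Of all genes tested, 26.4% were lower in brain, 15.9% higher in heart and 20.1% higher in liver. The brain count was the same under every scaling, and the heart count was 9 to 11, with shares of all genes not given here. The liver count fell to 2 higher and 1 lower with scaling by total gene counts (7.69% and 58.0% of all genes). With scaling by counts outside the ribosomal genes it was 6 higher and 1 lower (11.0% and 53.9%). The acyl-CoA dehydrogenases open each cycle and are named for chain length. Acadvl (very long chains) was at 7.36 and 7.20 in frozen and FFPE heart, 6.92 and 6.03 in liver, 5.83 and 5.15 in kidney, and 3.12 and 2.68 in brain. Acadl (long chains) was at 7.80 and 7.24 in heart, 6.61 and 5.57 in liver, 6.41 and 5.41 in kidney, and 3.02 and 2.48 in brain. Both were highest in heart in each preservation, and liver was lower than heart, with differences of -0.80 ± 0.20 and -1.43 ± 0.19 (SE; limma adjusted p = 0.0117 and 0.000402). The Acadvl call was lost without FFPE heart or FFPE liver.

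Shorter chains gave another order. Acadm (medium chains; chromosome 3, 153922353 to 153944643) was at 7.75 and 7.27 in frozen and FFPE heart, 7.70 and 6.69 in kidney, 7.82 and 6.29 in liver, and 2.88 and 2.46 in brain. Heart, kidney and liver overlapped for this gene. Acads (short chains) was at 5.41 and 4.89 in liver, 4.74 and 4.43 in kidney, 4.41 and 4.92 in heart, and 0.13 and 0.25 in brain, again with the 3 organs close. Brain was lower, with differences of -4.58 ± 0.21 for Acadm and -4.61 ± 0.22 for Acads (SE; limma adjusted p = 2.09e-06 and 2.39e-06). Heart and kidney differed by 0.32 and 0.08 for these genes (limma adjusted p = 0.415 and 0.859), with SE 0.26 and 0.27, and by 1.79 and 1.61 for Acadvl and Acadl (0.000276 and 0.000352). The latter calls were lost with scaling by total gene counts. Whether the difference depends on chain length was not tested.

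The trifunctional protein carries out the later steps for long chains. Its alpha subunit gene Hadha (chromosome 5, 30119423 to 30154980) was at 8.37 and 7.89 in frozen and FFPE heart, 7.53 and 6.61 in liver, 6.01 and 5.51 in kidney, and 4.19 and 3.65 in brain. The beta subunit gene Hadhb (chromosome 5, 30155253 to 30184593) was at 6.53 and 6.71 in heart, 4.49 and 3.72 in liver, 3.83 and 3.46 in kidney, and 2.58 and 2.32 in brain. The order of organs was the same for both genes, but also for Acadvl, Acadl and Etfa, which lie on other chromosomes. Hadha and Hadhb share the stretch shown between their starts, and its part in their levels was not tested. Heart was higher by 2.55 ± 0.14 for Hadha and 3.22 ± 0.20 for Hadhb (SE; limma adjusted p = 5.84e-06 and 1.02e-05). In liver Hadha was called higher (1.14 ± 0.14, SE; limma adjusted p = 0.000227; -0.07 with scaling by total gene counts), while Hadhb differed by -0.13 ± 0.20 (0.603). The difference between both genes was not tested. Their lower calls in kidney (-0.62 and -0.75) became 0.26 and 0.37 without the heart libraries.

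The other 5 genes of the cycle were also lower in brain and higher in heart and liver. Acaa2, the thiolase of the cycle, was at 7.82 and 6.96 in frozen and FFPE liver, 6.83 and 6.51 in heart, 5.23 and 4.54 in kidney, then 2.10 and 0.98 in brain, so that its kidney and brain libraries stood apart below. Liver was higher than kidney by 2.51 ± 0.21 (SE; limma adjusted p = 7.17e-05). For Hadh, the hydroxyacyl-CoA dehydrogenase of shorter chains, brain lay at 1.77 and 0.91 and all other libraries between 5.72 and 6.98. Echs1, the short-chain enoyl-CoA hydratase, was lower in brain (-2.69), as were the isomerase gene Eci1 (-3.04) and the dienoyl-CoA reductase gene Decr1 (-4.07), which handle double bonds of unsaturated chains. The genes of electron transfer did the same: Etfa and Etfb, the subunits of electron transfer flavoprotein, and Etfdh, its dehydrogenase, were lower in brain (-3.22, -3.68 and -3.70) and higher in heart (1.82, 1.54 and 2.18). In liver they were higher by 1.19, 1.34 and 1.72, but none of the 3 was called with scaling by total gene counts. Between liver and heart their median difference was -0.35 and 0 of the 3 were called (19.5% higher and 22.0% lower of all genes tested).

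The peroxisomal genes had a different order of organs, with heart among the low ones. All 7 were higher in liver under each of the 5 scalings, and all 7 were lower in brain, or 5 with scaling by total gene counts. In heart 6 were lower and 1 higher. Under quantile normalization and centring on medians this was 4 lower and 1 higher, and under both count scalings 6 lower and 0 higher. Shares of all genes for heart and brain under these settings are not given here, so these counts cannot be set against them. The median heart difference of all genes was -0.69 with scaling by total gene counts and -0.30 by counts outside the ribosomal genes. Of all genes tested, 20.1% were higher in liver, 26.4% lower in brain, and 18.1% lower and 15.9% higher in heart. Ehhadh, the peroxisomal bifunctional enzyme gene (chromosome 16, 21761285 to 21787834), was at 8.10 and 6.47 in frozen and FFPE kidney, 8.05 and 6.63 in liver, 2.79 and 0.67 in heart, and 0.38 and -0.57 in brain. Kidney and liver libraries overlapped and lay far above all heart and brain libraries. The difference from the other organs was 4.36 ± 0.22 in liver and 4.30 ± 0.22 in kidney (SE; limma adjusted p = 2.49e-06 and 1.48e-05), and liver and kidney differed by 0.05 ± 0.27 (0.918). The size relative to kidney depends on the scaling, since scaling by total gene counts moves every difference of liver from kidney by -1.29.

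Peroxisomal thiolase is encoded by a pair of near-identical genes on chromosome 9, 183934 bases apart, so that reads could be split between them and their separate values are uncertain. Acaa1b was at 9.36 and 8.02 in frozen and FFPE liver, 6.56 and 5.14 in kidney, -0.05 and -1.08 in heart, and had 3 and 2 counts in brain. Acaa1a was at 6.21 and 5.14 in liver, 4.40 and 4.16 in kidney, 3.29 and 3.58 in heart, and 2.90 and 2.69 in brain. Both were highest in liver, but Acaa1b ranged far more over the organs, with a liver difference of 8.00 ± 0.32 against 2.17 ± 0.24 (SE; limma adjusted p = 1.07e-06 and 0.000135). The call of Acaa1a as lower in heart (-0.81; limma adjusted p = 0.0312) was lost under quantile normalization, centring on medians or no trend, and on leaving out any of 5 libraries (both of brain, both of kidney, frozen heart).

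Crot, which hands shortened chains from peroxisomes to the carnitine system, was at 7.65 and 7.60 in frozen and FFPE liver, 7.30 and 5.58 in kidney, 3.36 and 3.13 in heart, and 2.78 and 2.75 in brain. Frozen and FFPE kidney lay further apart than the libraries of the other organs. Decr2, the peroxisomal dienoyl-CoA reductase gene, differed by 3.57 in liver and -2.61 in heart, both called, and its heart levels of 0.86 and 1.24 were the lowest of all. Pex11a, which promotes peroxisome division, was at 5.92 and 3.35 in frozen and FFPE liver, 2.91 and 1.91 in kidney, 0.98 and 0.59 in heart, and -0.32 and -0.38 in brain. Its call as lower in heart (-1.45 ± 0.46, SE; limma adjusted p = 0.0407) was lost in 9 of the alternatives. Eci2, an isomerase found in both organelles, was the member of this group called higher in heart (0.69 ± 0.19, SE; limma adjusted p = 0.0253), and that call was lost under both count scalings and without FFPE heart or FFPE kidney.

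Acot1 and Acot2 encode cytosolic and mitochondrial thioesterases that split acyl-CoA back to free acids. They are near-identical neighbours, 15624 bases apart on chromosome 12, and their separate values are uncertain for the same reason. Acot1 was at 4.84 and 2.94 in frozen and FFPE kidney, 4.22 and 2.40 in liver, 3.57 and 1.29 in heart, and 0.47 and 0.19 in brain. Acot2 was at 5.09 and 3.74 in heart, 4.29 and 2.45 in kidney, 4.28 and 1.47 in liver, and 0.47 and -0.67 in brain. The frozen libraries of heart, kidney and liver were all above their FFPE counterparts for both genes. Against the other organs Acot1 was higher in kidney (1.86 ± 0.37, SE; limma adjusted p = 0.00599), a call lost without either kidney library, and Acot2 in heart (2.37 ± 0.33; 0.000783).

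The ketone body enzymes differed by organ. Oxct1, the transferase that activates ketone bodies for burning and that liver is known to lack (chromosome 15, 4026428 to 4155344), was at 7.57 and 7.65 in frozen and FFPE heart, 7.66 and 7.62 in kidney, 5.82 and 5.64 in brain, and 1.90 and 1.83 in liver. The liver libraries, with 37 and 22 counts, lay far below the others, at -5.13 ± 0.13 (SE; limma adjusted p = 1.66e-07), the smallest adjusted p of any member in the comparisons of 1 organ with the others. Heart and kidney differed by -0.03 ± 0.16 (0.912). Oxct1 was the 1 member not called in brain (0.03 ± 0.13, SE; limma adjusted p = 0.869), but it was called higher there with scaling by total gene counts (1.25), by counts outside the ribosomal genes (0.51) and without both heart libraries (0.98). Bdh1, which interconverts the ketone bodies acetoacetate and beta-hydroxybutyrate, was at 6.39 and 5.49 in liver, 5.17 and 4.67 in kidney, 3.41 and 2.95 in brain, and 2.97 and 2.94 in heart. It was higher in liver by 2.26 ± 0.19 and in kidney by 0.90 ± 0.19 (SE; limma adjusted p = 2.70e-05 and 0.00748), the latter lost without either kidney library, without both heart libraries and without the trend. Acat1, the mitochondrial acetoacetyl-CoA thiolase that serves both directions, was at 7.53 and 6.27 in liver, 7.11 and 6.05 in kidney, 6.79 and 6.26 in heart, and 4.37 and 3.68 in brain, with heart, kidney and liver overlapping.

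Ppara itself (chromosome 15, 85734910 to 85806851) was at 7.91 and 6.89 in frozen and FFPE liver, 5.33 and 5.38 in kidney, 4.28 and 5.22 in heart, and 1.12 and 1.45 in brain. It was higher in liver (3.60 ± 0.31) and lower in brain (-4.55 ± 0.31; SE; limma adjusted p = 3.34e-05 and 9.68e-06). Heart differed from the other organs by 0.07 ± 0.31 (0.878) and kidney by 0.88 ± 0.31 (0.0652).

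**Figure D4:**
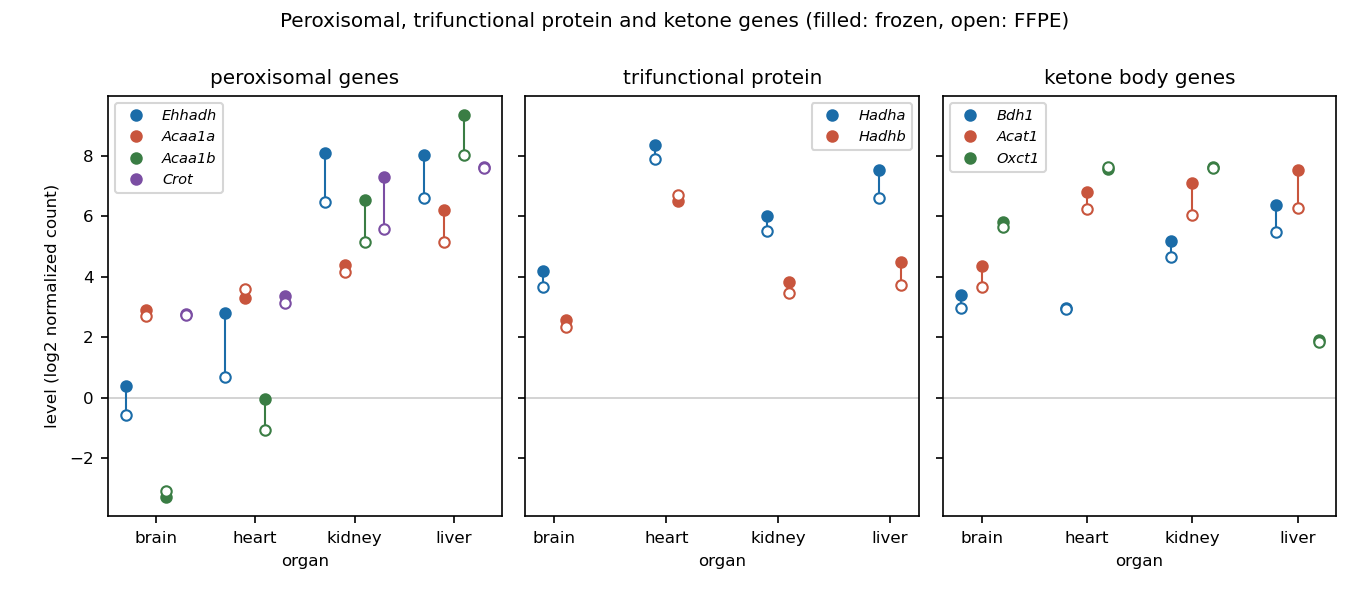
Level (y axis, log2 normalized count) of peroxisomal genes, the trifunctional protein pair and ketone body genes in the 4 organs (x axis), with filled circles for frozen and open circles for FFPE libraries, joined by a line. Ehhadh and Acaa1b are high in kidney and liver, Hadha and Hadhb are highest in heart, and Oxct1 is lowest in liver.

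Comparing the 3 organs that oxidise much fatty acid with each other, 14 members were higher and 10 lower in liver than in heart (19.5% and 22.0% of all genes tested; median 0.37 against -0.09). All 7 peroxisomal genes were among those higher, or 6 under each count scaling. The 4 mitochondrial cycle genes lower in liver were Acadvl, Acadl, Hadha and Hadhb. Under the scaling by total gene counts the split was 11 and 11 (10.2% and 23.3% of all genes), outside ribosomal genes 12 and 15 (13.5% and 32.4%), and under quantile normalization 12 and 14 (18.6% and 23.9%), and without FFPE heart or FFPE liver 5 and 6 members were lower. Against kidney, 21 were higher and 2 lower in liver (11.5% and 17.0%; median 0.92 against -0.09), the lower ones being Fabp3 and Oxct1. This split depended on the scaling: it was 14 and 3 under quantile normalization (12.1% and 17.2% of all genes), 7 and 7 outside ribosomal genes (6.04% and 48.6% of all genes) and 3 and 9 by total gene counts (4.29% and 46.4%). Without frozen or FFPE kidney 13 and 12 were higher. Heart against kidney gave 15 higher and 7 lower (13.4% and 16.8%; median 0.55 against -0.04), 11 and 9 outside ribosomal genes (8.60% and 27.4%) and 4 and 12 by total gene counts (4.95% and 23.2%). Without Fabp1 and Cpt1b, which had to differ, 13 of 36 members were higher and 10 lower in liver than in heart. Liver against kidney then gave 20 and 2, and heart against kidney 15 and 7. The comparisons share libraries and so are not independent.

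The other genes of the pathway were taken from lists that do not overlap the members. Of all genes tested, 20.1% were higher and 27.2% lower in liver, 15.9% and 18.1% in heart, and 16.1% and 13.5% in kidney. In brain 30.2% were higher and 26.4% lower. Of 39 further peroxisomal genes tested (of 40 listed), 31 were higher and 1 lower in liver and 1 higher and 24 lower in heart. With scaling by total gene counts, 16 were higher and 3 lower in liver (7.69% and 58.0% of all genes). Baat passed the filter through liver alone and so had to differ. Among these 39 genes Slc27a2, a very long chain acyl-CoA synthetase, was at 9.75 and 8.93 in frozen and FFPE kidney, 9.27 and 8.26 in liver, and between -1.08 and 0.13 in heart and brain. Ech1, a dienoyl-CoA isomerase, instead had its highest levels in heart, at 7.17 and 6.88, which was 2.61 ± 0.20 above the other organs (SE; limma adjusted p = 3.12e-05). Of 25 further mitochondrial oxidation genes, 20 were lower in brain and 0 higher, 14 were higher and 2 lower in liver, 11 higher and 1 lower in kidney, and 4 higher and 5 lower in heart. The heart counts of this list lay near the shares of all genes. With scaling by total gene counts the liver split was 7 and 7 (7.69% and 58.0% of all genes). Of 15 further uptake and activation genes tested (of 18 listed), 7 were higher and 2 lower in liver and 5 higher and 8 lower in heart. Fabp2 and Slc27a5 passed the filter through liver alone and so had to differ. Cd36, the fatty acid translocase, was at 8.64 and 8.03 in heart against 4.23 to 6.81 in kidney and liver and -1.85 and -0.78 in brain. Fabp4, the adipocyte and capillary isoform, was higher in heart by 6.74 ± 0.30 (SE; limma adjusted p = 2.15e-06), where 5 endothelial markers summed to 215 and 276 CPM against 11.3 to 105 elsewhere; their part was not tested.

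Of the 6 further ketone genes listed here, 3 were higher and 0 lower in liver (20.1% and 27.2% of all genes tested). With scaling by total gene counts this was 2 and 2 (7.69% and 58.0%). In heart 1 was higher and 4 lower (15.9% and 18.1%). Slc16a7, a transporter of monocarboxylates, was at 5.45 and 4.36 in frozen and FFPE liver, 4.43 and 4.88 in kidney, 2.17 and 2.03 in brain, and 1.19 and 0.41 in heart. It was higher in liver by 2.39 ± 0.29 (SE; limma adjusted p = 0.000231), or by 1.18 with scaling by total gene counts and 1.53 without both heart libraries, while the liver and kidney libraries overlapped.

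To ask whether fixation and embedding left these transcripts as they were, FFPE was compared with frozen tissue over the 4 organs. Sex-linked transcripts differed between them too, as given below, so a difference cannot be laid to preservation alone. No member was called, where 0.00673% of all genes tested (1 gene) were higher and 0% lower by limma at an adjusted p under 0.05. The differences nevertheless lay mostly on 1 side: 32 of 38 were negative, against 55.5% of all genes tested, and the median was -0.60 against -0.07. At an unadjusted p under 0.05 there were 24 members, against 18.6% of all genes. Members share organs and libraries, so these counts are a description and not a test. When the counts recovered from the table were weighted by voom, 16 members were called lower and 0 higher, where 1.02% of all genes were lower and 1.79% higher. These 16 were Cpt1a, Cpt2, Acadl, Acadm, Hadha, Acaa2, Eci1, Decr1, Etfb, Ehhadh, Acaa1b, Eci2, Pex11a, Acot1, Acot2 and Acat1. Adding 2 counts called 6 members lower (0.235% of all genes; 0.471% higher), scaling by total gene counts 4 (1.20%; 0.209%), by counts outside ribosomal genes 3 (0.215%; 0.0740%) and quantile normalization 1 (0.108%; 0.0807%).

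Ehhadh had the smallest adjusted p, with FFPE minus frozen differences of -0.95, -2.12, -1.63 and -1.42 in brain, heart, kidney and liver, in that order, and of -1.53 ± 0.19 over the 4 organs (SE; limma adjusted p = 0.0531). The 95% counting intervals of all 4 lay below 0, being widest in brain (-1.96 to -0.09) and narrowest in kidney (-1.71 to -1.55). Acot2 differed by -1.14, -1.35, -1.84 and -2.82 in the same order of organs (-1.79 ± 0.28 over them, SE; limma adjusted p = 0.0572) and Acot1 by -0.28, -2.28, -1.90 and -1.82 (-1.57; 0.0879). Cpt2 differed by -1.55, -0.78, -1.38 and -0.66 (-1.09 ± 0.18; limma adjusted p = 0.0595) and Acat1 by -0.89 ± 0.14 over the 4 organs (0.0595). All 4 of Cpt2's intervals also lay below 0. At the other end, Oxct1 (-0.05), Acads (-0.05), Cpt1c (0.04), Decr2 (0.07) and Ppara (0.08) were near 0. The other members above 0 were Acsl3 (0.26), Cpt1b (0.24) and Fabp1 (0.22), of which Cpt1b and Fabp1 had libraries at 0 counts. All 11 cycle genes, all 3 electron transfer genes and both thioesterases had negative differences, and none of them was called.

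Within each organ a difference is that of 1 library against 1 library, with exact intervals that cover counting error only. FFPE was below frozen for 37 of 38 members in liver, 34 in kidney, 29 in brain and 28 in heart, against 50.4%, 48.5%, 56.0% and 49.4% of all genes tested. In all 4 organs 24 members were below, where 13.7% of all genes tested were. The interval lay below 0 for 30, 29, 23 and 22 members in liver, kidney, brain and heart, in that order, against 14.5%, 16.6%, 26.9% and 18.2% of all genes. It lay above 0 for 1, 0, 3 and 4 members, against 19.0%, 21.5%, 19.6% and 21.5%. The members' median was lowest in liver at -0.96 (all genes tested -0.01), then kidney at -0.68 (0.02), brain at -0.41 (-0.08) and heart at -0.35 (0.01). At least 2-fold lower in FFPE were 5 members in brain (9.13% of all genes), 5 in heart (18.2%), 14 in kidney (10.4%) and 19 in liver (16.8%), so that brain and heart lay near the background, and kidney and liver above it. At least 2-fold higher were 1, 1, 0 and 1 (4.74%, 6.06%, 4.47% and 10.7%). Scaling by total gene counts moved the medians of brain and heart to 0.08 and -0.00183 and those of kidney and liver to -1.31 and -1.62. In liver the lowest differences above 3 counts were -2.82 for Acot2 and -2.57 for Pex11a (interval -2.97 to -2.21), and 1 member was higher there, Acsl3 at 1.91. Crot lay at -1.72 in kidney (-1.83 to -1.61) but at -0.03, -0.24 and -0.06 in brain, heart and liver.

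Other features moved with preservation. Xist, the transcript of the inactive X chromosome, had at least 2693 counts in each FFPE library and at most 26 in any frozen one. The Y-linked Ddx3y, Uty, Kdm5d and Eif2s3y were lower in FFPE than frozen tissue in every organ, but above 2 on the log2 scale throughout. Every FFPE library thus held both Xist and Y-linked transcripts, while the frozen ones held Y-linked transcripts with little Xist. By these transcripts the make-up by sex differed between frozen and FFPE tissue, and it was not simply male against female. Preservation and the mice behind it, with their sex, cannot be told apart. The 8 adipocyte markers summed to 74.9 CPM in frozen and 0.158 in FFPE liver, with Adipoq and Plin1 at 0 counts in both. Blood markers summed to 18.6 CPM in frozen and 224 in FFPE heart, 5.94 and 24.8 in kidney, 12.95 and 39.8 in liver, but 12.6 and 3.40 in brain. Hepatocyte markers summed to 365 CPM in frozen and 20.7 in FFPE brain and to 348 and 212 in kidney. Their median log2 level was only -2.78 and -4.63 in brain and 0.18 and -0.72 in kidney, so these sums do not stand for the whole list. Ribosomal RNA took 62.8%, 79.7%, 65.6% and 73.1% of frozen counts by organ (brain, heart, kidney, liver) and 50.4%, 71.9%, 72.7% and 79.5% of FFPE counts. The part of any of these in the lower FFPE levels was not tested.

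**Figure D5:**
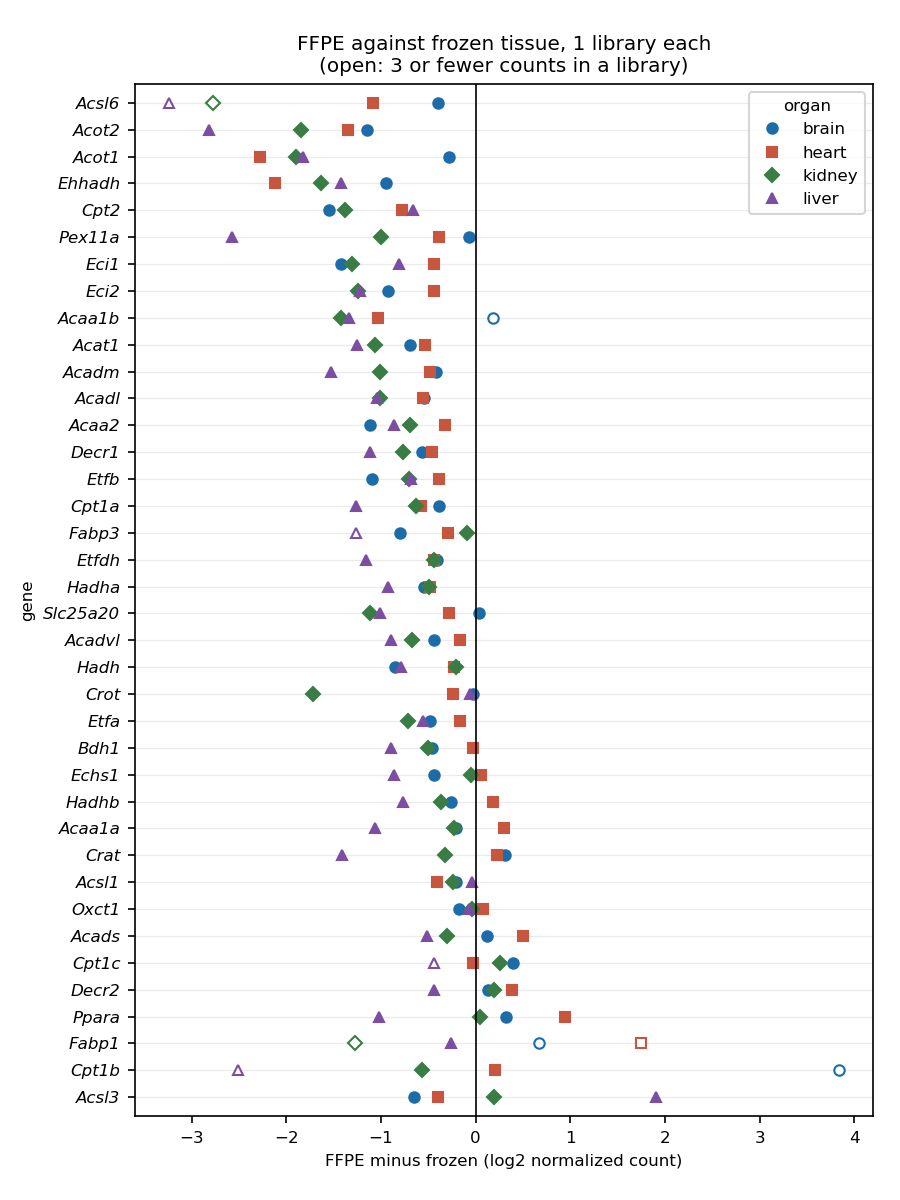
FFPE minus frozen difference (x axis, log2 normalized count) of each of the 38 genes (rows, ordered by the mean over organs) in brain, heart, kidney and liver, 1 library against 1 library, with open symbols where a library has 3 or fewer counts. Most symbols lie left of 0, with Acot1, Acot2, Ehhadh and Cpt2 left of it in all 4 organs and Acsl3 in liver to the right at 1.91.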

How the data were processed

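Total RNA of mouse organs was pulled down with an m6A antibody and sequenced. Per the submitters' processing notes, HISAT2, featureCounts and limma were used on mm10, with no versions, order or settings given. The authors deposited log2 normalized counts in 1 table of 27179 genes with 8 columns, 1 per organ and preservation. That these are m6A libraries comes from the table's name. The values behave as log2 CPM of counts plus 0.5, over a library size that is 0.426 to 2.24 times the total of the column; the sources used here do not give how it was set. Whole counts were recovered from the deposited values, 100.0% of them whole within 0.001 (relative to 10000 counts for larger ones). Another 8 columns could not be tied to a sample and were left out.

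A gene was tested where at least 2 libraries exceeded 0 on the log2 scale (14864 genes). With 1 column per group, limma (lmFit, then eBayes with a mean-variance trend) fitted an additive model of organ and preservation with 3 residual degrees of freedom. Calls are at a Benjamini-Hochberg adjusted p under 0.05 over all genes tested. Within an organ, differences carry exact 95% (Clopper-Pearson) intervals of the recovered counts, which hold counting error alone, as PCR copies of a molecule cannot be told apart here. The floor is 3 counts per library. The fit was tested on simulated data.

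The members and lists were chosen with earlier results of these data known. All 38 members are accounted for, and values in every library are given for isozymes, chain-length dehydrogenases, the trifunctional protein, peroxisomal thiolase genes, thioesterases, ketone genes, Ppara and members with large differences. From each further list, up to 4 genes with the largest difference could be named. Some genes of these lists are not reported here.

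Alternatives were quantile normalization, centring on medians, scaling by total gene counts or by counts outside 4 ribosomal genes, no filter, a mean log2 of at least 1, 2 counts added, no trend, voom weights and leaving out each library. Leaving out both heart libraries was chosen after seeing the data. Coordinates and promoters are from RefSeq (GRCm38.p6). Software was limma 3.58.1 (R 4.3.3), numpy 2.4.6, pandas 2.3.3, scipy 1.17.1 and matplotlib 3.10.9 (Python 3.11.15).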

Additional observations from a re-analysis of the deposited data

Results flagged for a closer look

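For 5 genes, FFPE minus frozen differences had opposite signs in a pair of organs, with 95% counting intervals on opposite sides of 0. Each is 1 library against 1 library, so the difference between organs was not tested. Acsl3, the synthetase linked to lipid droplets, was higher in FFPE than frozen liver by 1.91 (interval 1.48 to 2.36), while in brain it stood at -0.65 (-0.77 to -0.52). Crat, carnitine acetyltransferase, was at 0.31 in brain (0.03 to 0.60) and at -1.41 in liver (-1.73 to -1.11). Acads, the short-chain dehydrogenase, was at 0.50 in heart (0.27 to 0.74) and at -0.52 in liver (-0.77 to -0.27), and Hadhb, of the trifunctional protein, at 0.18 in heart (0.07 to 0.30) and -0.77 in liver (-1.16 to -0.41). Ppara was at 0.95 in heart (0.72 to 1.18) and at -1.02 in liver (-1.14 to -0.90), and the intervals of brain (-0.20 to 0.84) and kidney (-0.09 to 0.19) held 0.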

How the results depend on the processing

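No paired analysis was possible because the columns carry no run number. Over the left-out libraries, higher and lower members were 3 and 32 to 34 in brain, 19 to 24 and 8 to 10 in heart, 7 to 17 and 1 to 6 in kidney, 28 to 30 and 4 in liver, 12 to 15 and 5 to 13 for liver against heart, 12 to 21 and 2 to 3 for liver against kidney, 10 to 16 and 6 to 10 for heart against kidney, and 0 and 0 for FFPE. Without both heart libraries, 5 members were higher in brain. With a mean log2 of at least 1, 1 was higher in brain, 3 lower in kidney and 2 lower in liver, since fewer members were tested. Kidney had 1 lower with scaling by total gene counts, 2 by counts outside ribosomal genes and 3 with no trend. Scaling by total gene counts gave 15 higher and 7 lower in liver, 3 and 9 for liver against kidney and 4 and 12 for heart against kidney. Liver against kidney was 7 and 7 by counts outside ribosomal genes and 11 higher with no trend. FFPE had 1 member lower under quantile normalization (Acat1), 4 by total gene counts (Acsl6, Ehhadh, Acot1, Acot2), 3 by counts outside ribosomal genes (Cpt2, Etfb, Ehhadh), 1 with no filter (Ehhadh), 6 with 2 counts added (Cpt2, Acadl, Ehhadh, Eci2, Acot2, Acat1) and 16 with voom. Medians of FFPE minus frozen for brain, heart, kidney and liver became 0.080, -0.00183, -1.31 and -1.62 by total gene counts. By counts outside ribosomal genes they became -0.34, -0.47, -0.98 and -1.23 in the same order.

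Of 304 differences of single members, 14 reversed a call's sign with scaling by total gene counts, 3 by counts outside ribosomal genes and 1 under quantile normalization, as did 4 of 190 without both heart libraries. Both count scalings move every gene of a comparison equally. By total gene counts, brain Fabp3 became 0.33. Liver against kidney became -0.38 for Cpt2, -0.31 for Acadvl, -0.25 for Echs1, -0.53 for Hadh, -0.36 for Decr1, -0.56 for Etfa, -0.11 for Crot and -0.28 for Bdh1. Liver against the others became -0.51 for Acadl, -0.067 for Hadha, -0.0128 for Etfa, -0.11 for Acot1 and -0.0114 for Acat1, and, outside the members, -0.22 for Ech1. By counts outside ribosomal genes, liver Acadl became -0.079, and liver against kidney -0.14 for Hadh and -0.18 for Etfa. Under quantile normalization Acaa2 in liver against heart became -0.0014. Without both heart libraries Fabp3 became 1.56 in brain and 1.01 in kidney, and Hadha and Hadhb in kidney 0.26 and 0.37. Libraries with few counts limit Fabp1, Cpt1b, Acsl6 and brain Acaa1b most, where 3 counts or fewer lay behind a value.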

Other observations

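Some listed genes outside the members were high in kidney. Acsm2, a mitochondrial medium-chain acyl-CoA synthetase, was at 9.37 in frozen and 9.34 in FFPE kidney and differed from the other organs by 10.54 ± 0.60 (SE; limma adjusted p = 1.62e-05). Eci3, a peroxisomal isomerase, was at 5.54 and 4.57 in kidney, and elsewhere above 0 only in FFPE liver (0.24). It met the filter through kidney and so had to differ, and its kidney level is a description, with no test. Bdh2, a cytosolic hydroxybutyrate dehydrogenase, also was higher in kidney (5.74; limma adjusted p = 0.000262).

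Of 28 listed regulators of oxidation that were tested, 14 lay above and 14 below 0 for FFPE against frozen. Their median was 0.02, against -0.07 over all genes tested. By limma 0 were called, and 9 had an unadjusted p under 0.05, as did 18.6% of all genes tested. Regulators with the largest differences went both ways, and within an organ each value is 1 library against 1 library, with no test. Pdk4, the kinase that blocks pyruvate entry, was at 9.78 in frozen and 6.39 in FFPE heart (-3.40, interval -3.49 to -3.30), but differed by 0.39 in liver (-0.13 to 0.89). Angptl4, an inhibitor of lipoprotein lipase, differed by -4.36 in heart and -2.36 in kidney, with 5.72 and 5.57 in frozen and FFPE liver. Ucp3, a mitochondrial carrier, was at 5.29 and 2.60 in heart. Ppard, a nuclear receptor of the same family as Ppara, differed by 2.001 in kidney (1.65 to 2.38) and 1.89 in liver (1.24 to 2.59), and by 0.03 and 0.25 in brain and heart.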
